A study of Ovis aries with 16 samples.

Results

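AQP3 and AQP4 are members of the aquaporin family and were measured here by 3 of the 15008 non-control oligonucleotide probes on a sheep expression array, of which 2 are named AQP3 and 1 is named AQP4. They are 2 of the 1018 genes that could be named on the array. The probes were taken by the gene name that the array annotation carries, and all of them were kept. AQP3 had been singled out in earlier results of these data for its low level in estradiol-treated against control fetuses, so that contrast is described below without a test.

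The arrays were run on total RNA from the hypothalamus of 16 chronically catheterized fetal sheep, 1 array per fetus, aged 124 to 128 days of gestation where term is 147 days. In the estradiol+BCO group (n = 4) fetuses received estradiol at 250 ug per day for 5 days and then a brachiocephalic occlusion (BCO), a block of the artery that feeds the head, for 10 min. The BCO group (n = 4) had the occlusion and no estradiol, the estradiol group (n = 4) had the hormone and a sham occlusion, and the control group (n = 4) had the sham alone. Every fetus, controls included, carried indwelling catheters and gave repeated blood samples, and the hypothalamus was collected 1 h into the experiment, counted from the first sample and the onset of occlusion or sham. The labels give neither the sex of the fetuses nor whether any shared a ewe. As whole hypothalamus was extracted, fewer cells of a type and less RNA per cell cannot be told apart.

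Aquaporins are membrane channels through which water crosses cells along osmotic gradients. AQP4 is the main water channel of the brain, concentrated in the astrocyte endfeet that surround blood vessels and line the ventricles and the brain surface, where it is tied to water movement in edema. AQP3 is an aquaglyceroporin, a channel that passes glycerol as well as water, best known from skin, kidney collecting duct and other epithelia and from red cells.

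The probe sequences are shown because the AQP3 result rests on a pair of probes that read nearly the same stretch of one transcript. The 2 AQP3 probes are shifted by 1 base, and their 59 shared bases are in capitals; the AQP4 probe, from another transcript, is in lower case.
AQP3 probe A_70_P026067: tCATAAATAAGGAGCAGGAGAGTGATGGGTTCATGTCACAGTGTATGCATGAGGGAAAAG
AQP3 probe A_70_P026066: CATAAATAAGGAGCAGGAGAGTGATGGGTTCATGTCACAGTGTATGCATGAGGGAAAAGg
AQP4 probe A_70_P030236: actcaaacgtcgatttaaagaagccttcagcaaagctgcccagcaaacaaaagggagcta
Each probe is 60 bases long. The AQP3 probes were designed from a sheep expressed sequence tag (start bases 744 and 745 of it), so the name AQP3 rests on the array maker's annotation of that tag, while the AQP4 probe starts at base 788 of a sheep reference mRNA. Genome positions and the exon or UTR each probe lies in were not analysed here, since the array files give no mapped position.

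All levels below are log2 processed signal minus the 75th percentile of that array, so 0 stands for a probe as bright as the array's 75th percentile. The number of arrays, 4 per group, limits the precision. The 16 arrays were alike, with pairwise correlations over the tested probes of 0.97 to 0.99. They lay on 2 slides, each holding 2 arrays of every group (replicates 1 and 2 on slide 1, replicates 3 and 4 on slide 2), and 6.64% of tested probes differed between slides. Neither aquaporin did so (limma adjusted p = 0.734 and 0.928 for the AQP3 probes and 0.987 for AQP4). A probe was tested if it was well above background on at least 4 arrays, which 12940 probes were, all 3 aquaporin probes among them. Of 21 hypothalamic neuropeptide genes 13 had a probe and 13 passed that filter, and of 20 astrocyte genes 4 had a probe and 4 passed. As 903 of the 1018 named genes passed the filter, these counts do not check the tissue label.

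AQP3 signal was faint in every group and was highest in control fetuses. Probe A_70_P026066 read -7.23, -7.24, -6.53 and -6.63 in estradiol+BCO fetuses and -6.11, -5.97, -6.63 and -6.92 in BCO fetuses. It read -6.17, -6.44, -6.66 and -7.06 in estradiol fetuses and -5.49, -5.68, -5.80 and -5.21 in controls. In this processed signal all 12 treated fetuses lay below all 4 controls, while the 3 treated groups overlapped one another. After normexp, a model-based background correction that here adds 50 units to every spot, each treated group overlapped the controls. Such an addition draws dim spots together on the log2 scale. Control replicate 3 then read -4.62, against -4.60 in estradiol+BCO replicate 4, -4.50 in BCO replicate 1 and -4.45 in estradiol replicate 1. Above local background, control replicate 2 had 48.8 units, against 49.2, 52.3 and 54.3 in estradiol+BCO replicate 4, BCO replicate 2 and estradiol replicate 1. These units are not scaled to the array. The 75th percentile was 2047.5 units in control replicate 2, against 2351.4, 2326.9 and 2337.1 in those arrays, in the same order. The unscaled units therefore do not show an overlap of scaled levels. Of the 12940 tested probes, 3 (0.0232%) had all treated arrays below all controls, a pattern that includes the contrast by which AQP3 was singled out and is therefore given without further reading.

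The neighbouring probe A_70_P026067 gave the same order of group means with more overlap. It read -6.64, -7.24, -5.95 and -6.85 in estradiol+BCO fetuses and -5.82, -6.25, -6.36 and -6.38 in BCO fetuses. It read -6.20, -6.34, -6.48 and -6.84 in estradiol fetuses and -5.55, -6.20, -5.81 and -5.21 in controls. On this probe 1 control fetus, replicate 2, fell among the treated animals. In order from low to high, the means of A_70_P026066 were -6.91 ± 0.38 in estradiol+BCO, -6.58 ± 0.38 in estradiol, -6.41 ± 0.44 in BCO and -5.55 ± 0.26 in control fetuses (SD, n = 4 each). Those of A_70_P026067 were -6.67 ± 0.54, -6.46 ± 0.28, -6.20 ± 0.26 and -5.69 ± 0.42 in the same order of groups. On both probes, neighbours in that order among the treated groups differed by less than the larger of their SDs.

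**Figure D1:**
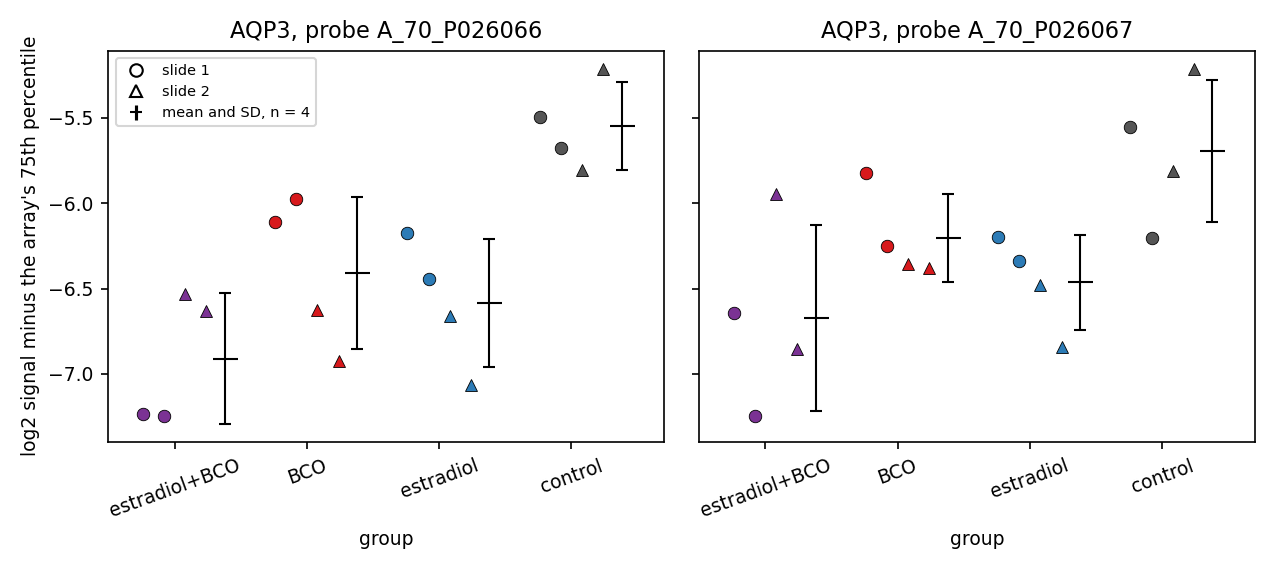
AQP3 level on each of its 2 probes (log2 signal minus the array's 75th percentile) in the 4 groups, 1 point per fetus, circles for slide 1 and triangles for slide 2, with the group mean and SD (n = 4). On A_70_P026066 every treated fetus lies below every control, and on A_70_P026067 control replicate 2 at -6.20 lies among the treated fetuses.

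How far above background these readings stood bears on all AQP3 differences. Both probes were well above background on 15 of 16 arrays, the exception being estradiol+BCO replicate 2, so 3 of 4 arrays of that group measured AQP3. The mean brightness of the A_70_P026066 spot was 1.63 times its local background in estradiol+BCO, 1.77 times in BCO, 1.68 times in estradiol and 2.14 times in control fetuses. After the scanner software removed background, 20.2 ± 5.28, 28.5 ± 8.34 and 25.1 ± 5.82 units were left in these treated groups, against 50.8 ± 10.5 units in controls (SD, n = 4 each). This spot thus carried at most 64.6 units of signal, and the software's own error estimate averaged 15.3% of it.

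**Figure D2:**
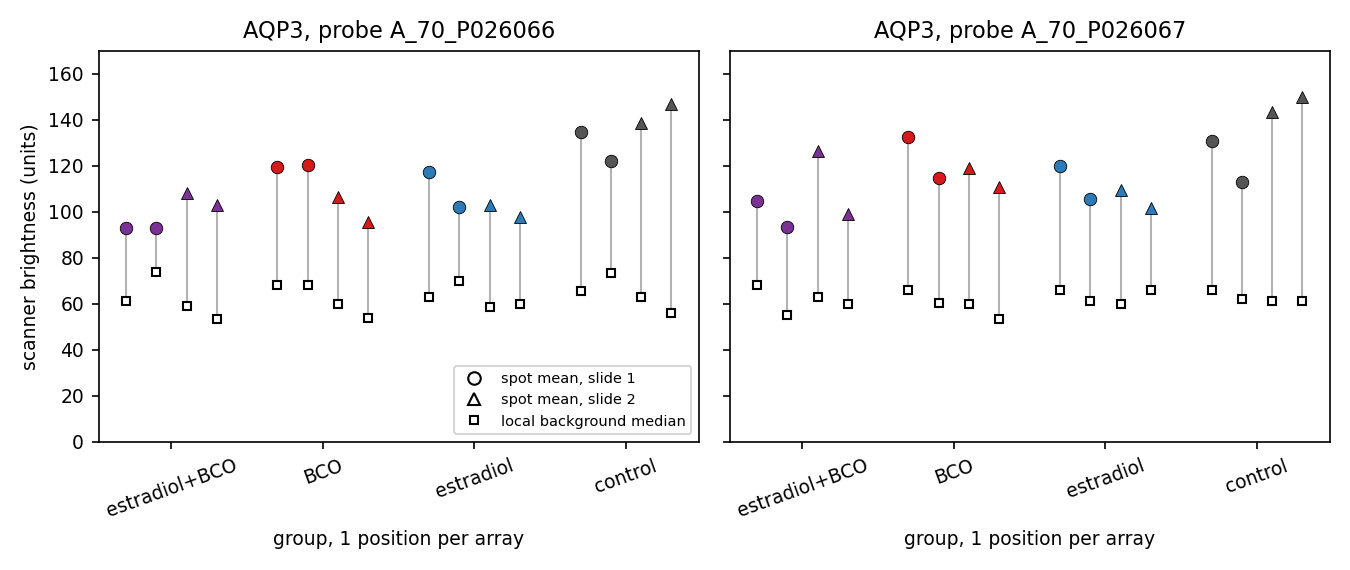
Scanner brightness of the 2 AQP3 spots (filled points, mean over the spot; circles slide 1, triangles slide 2) and of the area around each (open squares, median local background), 1 position per array, grouped by treatment. The spot brightness of A_70_P026066 lies between 92.8 and 147 units. The control spots have the highest mean ratio to background, 2.14, but control replicate 2 stands at 1.66, below the lowest BCO spot at 1.76.

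The probes of the pair followed each other across the 16 arrays (Pearson r = 0.86, Spearman rho = 0.89, with the SD of their difference 0.31 log2 units). They share 59 bases and the same RNA sample, so they are not separate measurements of the gene. Of 41 other pairs of probes shifted by 1 base and within 1 log2 unit of the AQP3 level, 5 had a higher r, and their median r was 0.45. The AQP5 pair, also shifted by 1 base, had r = 0.04. The gap between the AQP3 probes varied with group: A_70_P026067 read above A_70_P026066 by 0.24 in estradiol+BCO, 0.21 in BCO and 0.12 in estradiol fetuses, and below it by a difference of -0.15 in controls.

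Estradiol+BCO against control, the comparison of both treatments with neither, gave AQP3 its lowest p-values among the tested comparisons, and none passed adjustment. The difference was -1.36 ± 0.25 log2 units on A_70_P026066 (SE), a level 2.57-fold lower, with all 4 fetuses below all controls. By limma its unadjusted p was 7.78e-05, which ranked 3 among the 12940 probes, and its adjusted p was 0.336. On A_70_P026067 the difference was -0.98 ± 0.26 with an unadjusted p of 0.00217, rank 27, and an adjusted p of 0.844. No probe of the array passed an adjusted p of 0.05 in this comparison (0.0%), 747 had an unadjusted p under 0.05 (5.77%; 3.21% in the lower direction), and in 2.06% of probes all 4 estradiol+BCO fetuses lay below all controls. This contrast uses the same control arrays as the one that singled AQP3 out, so it is no independent support of it. Its size depended on the background correction: with normexp, a model-based correction of the raw spots, the differences were -0.48 and -0.38 with adjusted p = 1.0 for both. Normexp adds 50 units to every spot, where A_70_P026066 averaged 20.2 units in estradiol+BCO and 50.8 units in control fetuses. This addition alone draws the difference toward 0, and its share in the change was not tested. By slide the differences from the processed signal were -1.65 and -1.07 on A_70_P026066 (slides 1 and 2), and -1.07 and -0.89 on A_70_P026067.

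BCO against control asks what the occlusion did in fetuses without estradiol. AQP3 differed by -0.86 ± 0.25 on A_70_P026066, a level 1.82-fold lower, with all 4 BCO fetuses below all controls. The limma p was 0.00378 and the adjusted p 0.493. The 4 control arrays are those of the contrast that singled AQP3 out, so these values are not independent of that choice. On A_70_P026067 the difference was -0.51 ± 0.26 (adjusted p = 0.728), and the groups overlapped. Over the whole array 0 probes passed adjustment (0.0%), 927 had an unadjusted p under 0.05 (7.16%), and 1.73% had all BCO fetuses below all controls. The difference on A_70_P026066 was -0.45 on slide 1 and -1.27 on slide 2, and -0.32 after normexp. The values for A_70_P026067 were -0.16 and -0.85 by slide and -0.17 after normexp.

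Within the estradiol-treated fetuses and within the occluded fetuses AQP3 gave smaller differences, none past adjustment. Estradiol+BCO against estradiol gave -0.33 ± 0.25 on A_70_P026066 (95% interval -0.86 to 0.21; limma adjusted p = 0.793) and -0.21 ± 0.26 on A_70_P026067 (adjusted p = 0.905). The estradiol arrays are those whose low AQP3 level singled the gene out, so these values are not independent of that choice. The sign of the difference was not shared by the slides, with -0.93 and 0.28 on slides 1 and 2 for A_70_P026066, and -0.68 and 0.26 for A_70_P026067. Within the occluded fetuses, estradiol+BCO against BCO gave -0.50 ± 0.25 (95% interval -1.04 to 0.03; adjusted p = 0.55) and -0.47 ± 0.26 (adjusted p = 0.595). Here too the slides differed, at -1.20 and 0.19 on A_70_P026066 and -0.91 and -0.03 on A_70_P026067. After normexp, estradiol+BCO against BCO was -0.16 and -0.21, and estradiol+BCO against estradiol -0.32 and -0.25. A p that misses the threshold does not show that the levels were equal.

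The contrast that singled AQP3 out, estradiol against control, had a difference of -1.04 ± 0.25 on A_70_P026066, with all 4 estradiol fetuses below all controls, and -0.77 ± 0.26 on A_70_P026067. Across the array 1.55% of probes had all estradiol fetuses below all controls. After normexp these differences were -0.16 and -0.12, values that rest on 1 array. Normexp placed estradiol replicate 3 at -3.80 on A_70_P026066 and -3.76 on A_70_P026067, against -4.90 to -4.45 in the other estradiol fetuses on both probes. The AQP9 probe, not well above background on any array, was raised alike on that array, at -4.13 against -5.38 to -5.17 in the other estradiol fetuses. Without that array the normexp differences were -0.38 and -0.34, and estradiol+BCO against estradiol was -0.10 and -0.035 (chosen after seeing the data). Plain subtraction of the local background, also chosen after seeing the data, gave -0.76 and -0.64 for estradiol against control with all arrays. The interaction, the estradiol difference in occluded fetuses minus that in sham fetuses, was 0.54 ± 0.35 and 0.30 ± 0.37, and changed sign between slides, at -0.48 and 1.55 on A_70_P026066 and -0.52 and 1.11 on A_70_P026067. After normexp it was -0.0010 and -0.09, and without estradiol replicate 3 it was 0.22 and 0.13.

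Markers of other tissue that a hypothalamic dissection can include were read beside AQP3. TTR, the transthyretin gene that marks choroid plexus, was also highest in controls on average, at -2.15 ± 1.12 in estradiol+BCO against control (limma adjusted p = 0.844). The choroid plexus and ependyma list has 12 genes, of which 3 had a probe and 2 were tested, TTR and IGF2. Unlike TTR, IGF2 was highest in estradiol fetuses, with a mean of 2.65 against 2.40 in controls, 1.76 in BCO and 1.29 in estradiol+BCO. AQP1, the water channel of choroid plexus, was well above background on 1 of 16 arrays. The summed level of the list, in multiples of the array's 75th percentile, ranged over 1.19 to 8.20 in estradiol+BCO, 3.87 to 15.4 in BCO, 4.21 to 10.12 in estradiol and 9.41 to 14.9 in control fetuses. Of 9 pituitary genes 7 had a probe and 6 were tested, with sums of 5.19 to 7.77, 4.52 to 6.56, 6.31 to 18.8 and 5.49 to 11.6 in the same order of groups. PRL, the pituitary hormone prolactin, stood at 1.12 in control replicate 4 against -3.82 to -3.47 in the other controls, and that array also held the highest AQP3 reading, -5.21 on both probes. Without it the estradiol+BCO differences from control were -1.25 and -0.82 on the AQP3 probes, and the BCO differences -0.75 and -0.35. Leaving out the array with the highest AQP3 reading does not test its tissue content. The part of choroid plexus and pituitary tissue in the AQP3 values was not tested.

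Cells in which AQP3 is best known were scarcely covered. Of 11 epithelium and skin genes 2 had a probe, and 1 was tested, SFN, which encodes the epithelial protein 14-3-3 sigma. The level of SFN ranged over 0.0325 to 0.117 in estradiol+BCO, 0.0776 to 0.21 in BCO, 0.0691 to 0.412 in estradiol and 0.073 to 0.21 in control fetuses. TP63, a transcription factor of basal epithelium, was above background on 0 arrays. Of 10 red cell genes only HBB, a beta globin, had a probe. It ranged over 3.21 to 23.6 in estradiol+BCO, 5.06 to 29.2 in BCO, 3.30 to 17.8 in estradiol and 4.02 to 36.5 in control fetuses, so all groups overlapped. On the log2 scale the SFN means were -3.67 in estradiol+BCO, -3.26 in BCO, -2.95 in estradiol and -2.89 in control fetuses. Those of HBB were 3.45, 3.77, 2.73 and 3.15 in the same order. The part of epithelium and red cells in the AQP3 values was not tested.

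AQP4 was a bright probe and was lowest in BCO fetuses. It read 5.92, 5.82, 5.28 and 5.78 in estradiol+BCO fetuses and 5.24, 4.79, 5.40 and 5.14 in BCO fetuses. It read 5.84, 5.74, 5.81 and 5.59 in estradiol fetuses and 5.17, 5.71, 5.59 and 5.58 in controls. The lowest reading was BCO replicate 2, and the BCO group overlapped the controls through control replicate 1 and the estradiol+BCO group through its replicate 3. The estradiol fetuses ranged over 5.59 to 5.84 and the BCO fetuses over 4.79 to 5.40. These 2 groups were not compared by a fit, and the share of all probes with such a gap was not counted. From low to high, the means were 5.14 ± 0.26 in BCO, 5.51 ± 0.24 in control, 5.70 ± 0.29 in estradiol+BCO and 5.74 ± 0.11 in estradiol fetuses (SD, n = 4 each). The last 3 differed from their neighbours by less than the larger SD.

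The AQP4 probe was well above background on 16 of 16 arrays, with 64194 to 151681 units of processed signal. On 16 of 16 arrays the scanner software took the value from a second scan at lower detector gain and scaled it up, and no AQP4 spot was marked as saturated or as an outlier. Normexp hardly moved these values, unlike those of AQP3, and the 50 units it adds are small beside signals of this size.

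**Figure D3:**
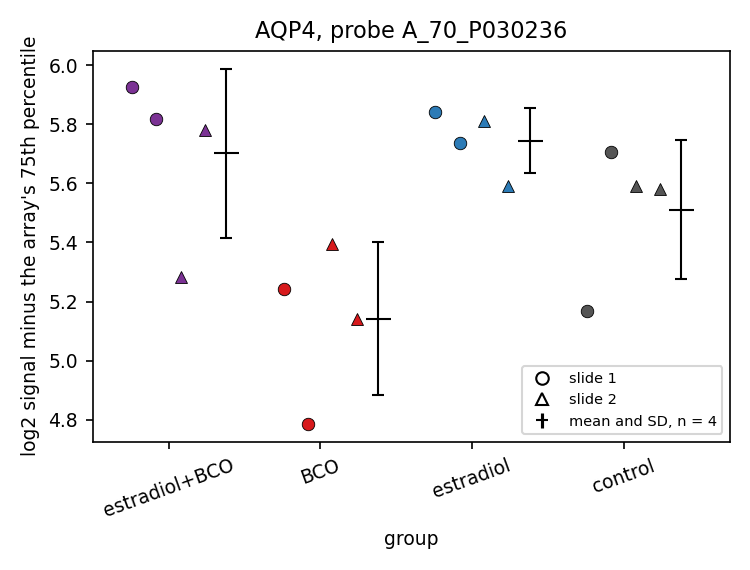
AQP4 level (log2 signal minus the array's 75th percentile) in the 4 groups, 1 point per fetus, circles for slide 1 and triangles for slide 2, with the group mean and SD (n = 4). The BCO fetuses lie between 4.79 and 5.40, below 3 of the 4 estradiol+BCO fetuses, and the estradiol fetuses between 5.59 and 5.84.

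Estradiol+BCO against BCO, which asks what estradiol did in fetuses that were occluded, gave AQP4 its largest difference, 0.56 ± 0.16 log2 units or 1.47-fold higher (95% interval 0.21 to 0.91). The limma p was 0.00397 and the adjusted p 0.291. Of the 4 estradiol+BCO fetuses 3 lay above all BCO fetuses. In this comparison 0 probes passed adjustment (0.0%), 1232 had an unadjusted p under 0.05 (9.52%), and 3.57% were so in the higher direction. The difference was 0.86 on slide 1 and 0.26 on slide 2, and 0.52 after normexp.

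BCO against control gave AQP4 a difference of -0.37 ± 0.16 (limma adjusted p = 0.669), with -0.42 and -0.32 on slides 1 and 2 and -0.34 after normexp. Its unadjusted p was 0.0399, and 3.51% of all probes were lower in BCO with an unadjusted p under 0.05. In fetuses given estradiol the occlusion difference, estradiol+BCO against estradiol, was -0.04 ± 0.16 (95% interval -0.39 to 0.31; adjusted p = 0.987). Of the 12940 probes 1 passed an adjusted p of 0.05 there (0.00773%), and it was not an aquaporin probe. Estradiol+BCO against control gave 0.19 ± 0.16 (adjusted p = 0.906), with 0.44 on slide 1 and -0.05 on slide 2. As a description, estradiol against control was 0.23 ± 0.16 and the interaction 0.33 ± 0.23.

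**Figure D4:**
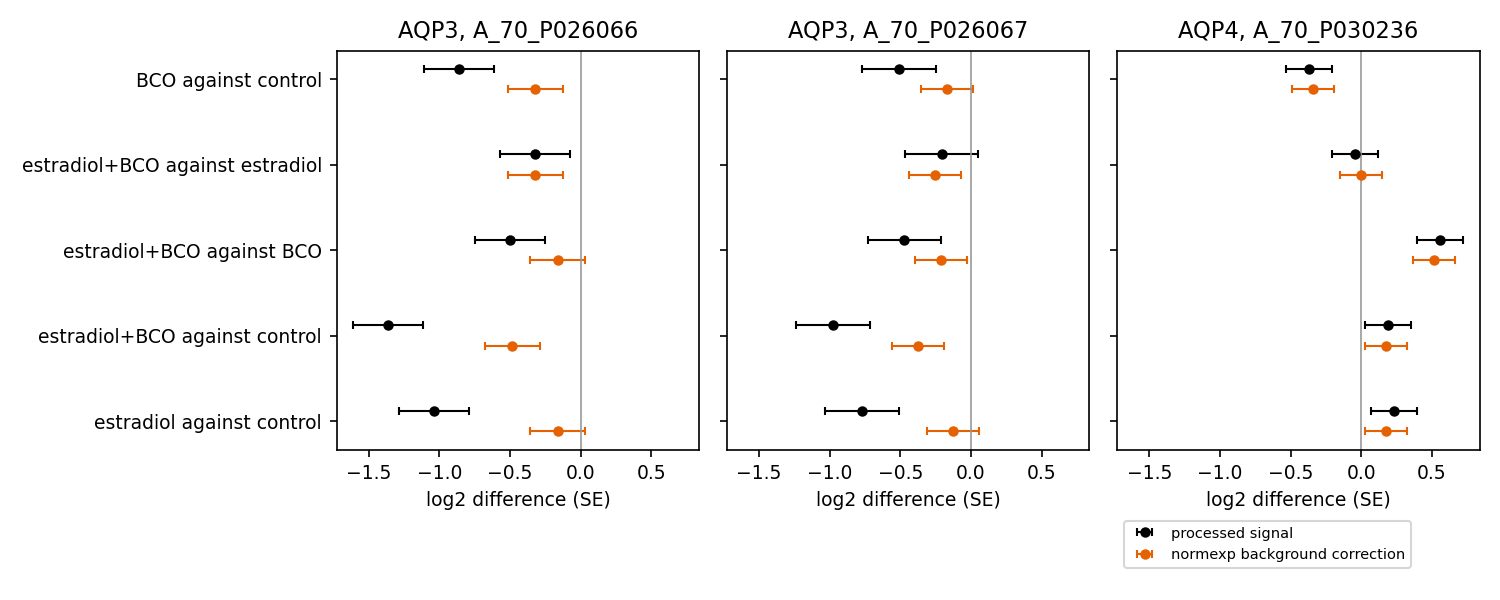
Log2 differences with SE for the 3 probes in 5 comparisons, from the scanner's processed signal (black) and after normexp background correction (orange), with 0 as a grey line. In estradiol+BCO against control A_70_P026066 moves to -0.48 after normexp, against -1.36 from the processed signal, while AQP4 in estradiol+BCO against BCO stays near its 0.56, at 0.52.

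Astrocyte genes, which mark the cells that carry AQP4, were read beside it. Of the 4 astrocyte genes measured, 0 passed adjustment in estradiol+BCO against BCO, and all 4 lay lower there, with a median of -0.32. GFAP, the filament protein of astrocytes, differed by -0.16 ± 0.27 (limma adjusted p = 0.891), and GJA1, which encodes the astrocyte gap junction protein connexin 43, by -0.32 ± 0.18 (adjusted p = 0.598). FGFR3, a growth factor receptor of astrocytes and their precursors, gave -0.32 ± 0.14 (adjusted p = 0.476), and SLC1A2, the astrocyte glutamate transporter, -0.36 ± 0.29 (adjusted p = 0.725; -0.14 after normexp). The summed level of the 4 genes overlapped between groups, at 2.39 to 3.47 in estradiol+BCO, 2.25 to 3.92 in BCO, 2.81 to 4.29 in estradiol and 1.61 to 3.60 in control fetuses. Across the 16 arrays the Pearson r with AQP4 was 0.37 for GFAP, -0.16 for GJA1, -0.45 for SLC1A2 and -0.55 for FGFR3.

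Hypothalamic neuropeptide genes shared the AQP4 pattern of low values in BCO fetuses. In BCO against control 12 of the 13 measured were lower and 0 passed adjustment, with a median of -1.70. GAL, the gene for the peptide galanin, differed by -2.82 ± 0.56 (limma adjusted p = 0.466) and SST, somatostatin, by -1.32 ± 0.41 (adjusted p = 0.493). In estradiol+BCO against BCO 11 of 13 were higher, with a median of 1.23; OXT, oxytocin, gave 4.33 ± 0.90 (adjusted p = 0.149) and GAL 2.14 ± 0.56 (adjusted p = 0.257). Other comparisons differed from AQP4. In estradiol+BCO against control 11 of 13 were lower, with a median of -0.45, where AQP4 was higher by 0.19. In estradiol against control 9 of 13 were lower, with a median of -0.31, where AQP4 was higher by 0.23. The median over all tested probes lay between -0.02 and 0.01 in every comparison. Summed neuropeptide levels were 21.3 to 37.7 in estradiol+BCO, 7.35 to 16.8 in BCO, 17.6 to 49.7 in estradiol and 22.8 to 37.8 in control fetuses. The BCO range lay below the others, but how often sums of other genes show such a gap was not counted. Levels were summed on the linear scale, so bright genes such as SST (log2 mean 2.70 in BCO, 4.02 in control fetuses) weigh most. No correlation of the sums with AQP4 was computed, and their part in the AQP4 result was not tested.

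By the rule for likeness, 902 named genes were ranked by Pearson r with AQP4 over the 16 arrays, as a description in which all points share their array and scaling. The highest were CAPNS1, the small subunit of calpain proteases (r = 0.78), ITGAL, a leukocyte integrin chain (0.77), SST (0.77), CRHBP, which binds corticotropin-releasing hormone (0.75), and ESR1, the estrogen receptor alpha gene (0.72). The ITGAL probe was well above background on only 8 of the 16 arrays. ESR1 differed by -1.53 ± 0.41 in BCO against control (limma adjusted p = 0.466). The lowest were SLIRP, an RNA-binding protein of mitochondria (-0.85), RHAMM, a hyaluronan receptor (-0.82), and ASPM, a spindle protein of dividing cells (-0.74). Without the arrays farthest from the AQP4 median, BCO replicates 2 and 4, the r of SST was 0.80 and that of SLIRP -0.82, while CAPNS1 came to 0.52. After normexp all 8 kept their sign, with ITGAL at 0.37, SST at 0.76 and SLIRP at -0.74.

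For AQP3, read from A_70_P026067, the r values were lower. The highest were HSD11B1, the enzyme that regenerates active glucocorticoid (r = 0.65), ABCB1, the efflux pump P-glycoprotein of the blood-brain barrier (0.57), CAST, the calpain inhibitor calpastatin (0.54), ETBR, an endothelin receptor (0.53), and COL6A1, a collagen VI chain (0.51). The lowest were EPAS1, a hypoxia-inducible transcription factor (-0.61), TRPC4AP, a protein that binds a TRP channel (-0.58), and SELP, the adhesion molecule P-selectin (-0.57). Without estradiol+BCO replicate 2 and control replicate 4 the r of HSD11B1 was 0.45, that of ETBR 0.13, and that of CAST stayed at 0.54. After normexp the r of EPAS1 was 0.47, of TRPC4AP 0.30 and of SELP 0.0001, so the negative relations did not hold there. Without estradiol replicate 3 these normexp values were -0.26, -0.19 and -0.22. On the high side normexp gave HSD11B1 an r of 0.08, ABCB1 0.29, CAST 0.40, ETBR 0.10 and COL6A1 0.77. The COL6A1 probe was well above background on only 7 of the 16 arrays, and that of EPAS1 on 14. AQP3 and AQP4 had r = -0.40 with each other, and -0.17 after normexp.

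**Figure D5:**
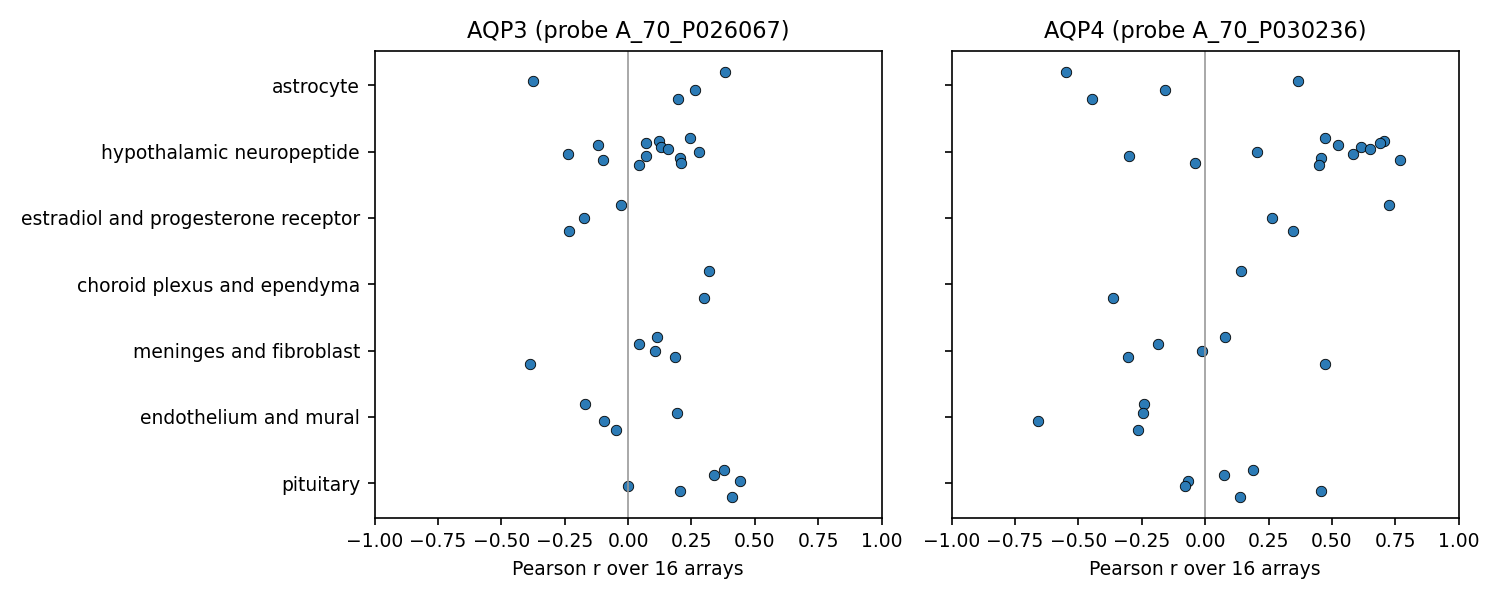
Pearson r over the 16 arrays of the genes of 7 lists with AQP3 (left) and AQP4 (right), 1 point per gene. Most neuropeptide genes lie right of 0 with AQP4, SST highest at 0.77, while 3 of the 4 astrocyte genes lie left of 0.

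None of the other aquaporins on the array passed adjustment in any tested comparison. AQP1 and AQP9, an aquaglyceroporin like AQP3, were not tested, since AQP9 was well above background on 0 arrays and AQP1 only in estradiol replicate 2. AQP2, the vasopressin-regulated channel of the kidney collecting duct, AQP5, the channel of glands and airways, and AQP8 had 6 tested probes. Their differences ran over -0.50 to 0.11 in BCO against control, -0.05 to 0.31 in estradiol+BCO against BCO and -0.26 to 0.18 in estradiol+BCO against control. AQP2 probe A_70_P026246 also had all 4 BCO fetuses below all controls (-0.24 ± 0.13), as had 1.73% of probes. In estradiol+BCO against BCO it gave 0.31 ± 0.13 (limma unadjusted p = 0.0276, adjusted p = 0.458). The other AQP2 probe, A_70_P026247, gave -0.04 and 0.01 in these comparisons. For BCO against control AQP8 had probe A_70_P026742 at -0.40 ± 0.17 (limma adjusted p = 0.651), while its other probe, A_70_P026741, differed between slides by 0.99 ± 0.12. No gene annotated beside AQP3 or AQP4 in the sheep reference assembly (NOL6, AQP7, CHST9 and KCTD1) had a probe.

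Genes that work with these channels did not pass adjustment either. The ion transport list had 7 tested genes, 4 higher and 3 lower in estradiol+BCO against control, and 0 passed. SLC4A4, the sodium bicarbonate cotransporter of astrocytes and kidney, gave -0.44 ± 0.20 in estradiol+BCO against BCO (limma adjusted p = 0.512; -0.22 after normexp). The glycerol list had 3 tested genes, 2 of them lower in estradiol+BCO against estradiol; DGAT1, an enzyme of triglyceride synthesis, gave 0.33 ± 0.10 there (adjusted p = 0.431). Of the 7 water balance hormone and receptor genes tested, 3 were higher and 4 lower in estradiol+BCO against BCO, and 0 passed. In the meninges, endothelium, leukocyte and steroid receptor lists, with 5, 4, 3 and 3 tested genes, 0 passed in any tested comparison.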

How the data were processed

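Per the labels, RNA was labeled with Cy3 and hybridized to single-color Agilent sheep arrays. Per the file headers, the authors extracted spots with Feature Extraction 10.1.1.1; the deposited intensity of each spot is its background-subtracted processed signal, beside raw spot and local background intensity and spot flags. The deposited log2 value table equals log2 processed signal minus each array's median over all features.

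Spots of a probe were averaged, log2 taken and the 75th percentile of the array (2047.5 to 2938.6 units) subtracted. On each array 77.27% to 86.45% of probes were well above background. Probes well above background on at least 4 of 16 arrays were tested with limma 3.58.1 in R 4.3.3, the 4 groups in 1 fit, with Benjamini-Hochberg adjustment over 12940 probes. The fit was tested on simulated data. Aquaporin genes, gene lists and comparisons were chosen with earlier results of these data known. Named genes are every aquaporin probe, up to 4 genes a list by lowest p, and the 5 highest and 3 lowest by likeness (brightest probe per gene). ETBR and RHAMM are the array's names. A name was available for the other probes only in part: 13359 had none. P-values measure the spread between fetuses, 1 array each. Alternatives covered normexp, local background subtraction and normexp without estradiol replicate 3 (both chosen after seeing the data), median centring, other filters, slides, the deposited log2 table, groups alone, a replicate block and each array left out. Deviations from the group means correlated at -0.02 to 0.28 between same-numbered arrays (20 of 24 pairs over 0.1) and at -0.03 to 0.34 between arrays of other numbers on the same slide (17 of 24), so not every same-numbered pair passed 0.1 and the numbers were taken as names only. A result for 1 gene of the ion transport list is not reported here.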

Additional observations from a re-analysis of the deposited data

Results flagged for a closer look

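In 4 of 104 groups of 4 arrays examined, 1 array stood apart from the other 3 by more than the Dixon criterion allows; chance gives about 1 in 20. None was an AQP3 or AQP4 value. PRL stood at 1.12 in control replicate 4, against -3.82 to -3.47 in the other controls. SST stood at 2.86 in estradiol+BCO replicate 3, against 4.15 to 4.40 in the rest of that group, and at 1.77 in BCO replicate 4, against 2.96 to 3.08. GJA1 stood at -1.64 in estradiol+BCO replicate 4, against -1.94 to -1.91.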

How the results depend on the processing

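No AQP3 or AQP4 difference that was tested passed an adjusted p of 0.05 under any alternative run with a test. The cause of each change below was not tested. On slide 2 alone A_70_P026066 read 0.28 in estradiol+BCO against estradiol and 0.19 in estradiol+BCO against BCO, and A_70_P026067 read 0.26 in the first. AQP4 in estradiol+BCO against estradiol read 0.084 on slide 1 alone, with a range of -0.12 to 0.10 when arrays were left out singly, and in estradiol+BCO against control -0.054 on slide 2. GFAP in estradiol+BCO against BCO read 0.019 on slide 1. With normexp, estradiol against control read -0.16 and -0.12 on A_70_P026066 and A_70_P026067, and the A_70_P026066 interaction -0.0010. Without estradiol replicate 3, an alternative chosen after seeing the data, these normexp values were -0.38, -0.34 and 0.22. From the processed signal that interaction was -0.48 and 1.55 by slide, and -0.52 and 1.11 on A_70_P026067. Probes passing adjustment in BCO against control numbered 14 on slide 2, 3 with the groups fitted alone and 0 to 6 with single arrays left out (6 without BCO replicate 2). For estradiol+BCO against BCO they numbered 14 on slide 2 and 0 to 5 with arrays left out, and for estradiol+BCO against control 3 on slide 2. For estradiol+BCO against estradiol they numbered 0 with the replicate block, median centring, either slide, the deposited table, the groups alone or normexp without estradiol replicate 3, and 0 to 1 with arrays left out. The replicate block changed no other call and no difference of AQP3 or AQP4. OXT in estradiol+BCO against BCO passed without BCO replicate 1 (5.28, adjusted p = 0.023). The filter of all arrays above background leaves AQP3 untested. Signal near background limits AQP3, and 2 arrays per group limit each slide.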
